A study of Mus musculus with 4 samples.

Results

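The Trem genes encode cell-surface receptors of the immunoglobulin superfamily that sit side by side on mouse chromosome 17, and Tyrobp and Hcst, neighbours on chromosome 7, encode the adaptors DAP12 and DAP10 through which several such receptors signal. Accessible chromatin was described at 8 genes: Trem1, Trem3, Treml4, Treml2, Trem2, Treml1, Tyrobp and Hcst. All deposited peaks that overlapped these gene bodies or the 10 kb on either side were taken, and stretches shared by neighbouring genes were counted once, which left 4 windows. They held 32 distinct peaks of 143525 in WT replicate 1, 32 of 177972 in WT replicate 2, 32 of 180970 in IRF8KO replicate 1 and 35 of 173590 in IRF8KO replicate 2. Peaks with a −log10 q of at least 2, called strict here, were merged over the libraries, and 33 of the 155546 merged regions lay in the windows.

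The data came from ATAC-seq, in which the Tn5 transposase inserts adapters into open DNA, so that many cut sites at a position mark accessible chromatin. Microglia, the macrophages of the brain, were sorted by flow cytometry from the brains of untreated C57BL/6 mice aged 3 months. The 2 WT libraries carried no stated mutation, and the 2 IRF8KO libraries came from mice labelled as knockout for IRF8, a transcription factor of myeloid cells that binds DNA with partners such as PU.1. The labels name neither the knockout allele nor a Cre driver, and they do not say whether the replicates came from separate animals, so the p-values measure only the spread between these libraries, which may be technical.

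TREM1, TREM2 and TREM3 have short tails with no signalling motif of their own and pair through a charged residue in the membrane with DAP12, whose cytoplasmic activation motif recruits the kinase SYK, while DAP10 recruits phosphoinositide 3-kinase. TREM2 binds lipids, lipoproteins and apolipoproteins and is known in microglia for the response to damage and plaques, whereas TREM1 is known from neutrophils and monocytes, where it amplifies inflammatory signals.

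The WT libraries held 46948938 and 48896408 tags and the IRF8KO libraries 78793572 and 66224648, a mean ratio of 1.51. Depth and tag size (50 bp in WT, 49 bp in IRF8KO) both followed genotype and cannot be told apart from it. Signal is given as PPM, pileup per 1000000 tags: the number of extended cut sites stacked at a summit, divided by the tags of the file header and multiplied by 1000000. The lowest pileup deposited was 0.128 and 0.123 PPM in WT and 0.102 and 0.106 in IRF8KO, so a region listed in no WT library may hold signal under those values. IRF8KO replicate 1 stood apart in level: the median over the regions compared was 0.444 PPM there, against 0.767, 0.634 and 0.710 in WT replicates 1 and 2 and IRF8KO replicate 2. Over 58109 regions with a summit in all 4 libraries the median log2 difference (IRF8KO minus WT) was -0.31, so a region with a difference of that size moved no more than the typical region. The main results are therefore also given after every library was centred on its own median. The gene body of Irf8 held strict regions in every library, 5, 5, 7 and 6 of 7, and open chromatin does not check whether the gene was deleted.

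The number of accessible regions around these genes did not differ between the genotypes beyond the spread, while the heights of 5 single regions did. The windows held 29 and 25 strict peaks in the WT libraries and 24 and 27 in the IRF8KO libraries, or 27 ± 2.83 and 25.5 ± 2.12 (SD, n = 2 each, two-sided exact permutation p = 0.667). With 2 libraries against 2 this test cannot give a p below 0.333. Strict peaks covered 7511 ± 617 bp in WT and 8484 ± 435 bp in IRF8KO (exact permutation p = 0.333). Of the 33 regions, 26 lay on the Trem cluster and 7 at Tyrobp and Hcst, 16 lay within 1 kb of a start site of a protein-coding transcript, and distances are given to the nearest such site, of which some genes have several. Of the 33, 18 were strict in all 4 libraries (54.5%, against 31.0% of all merged regions). Introns held 15 of the 33 summits, intergenic sequence 13, untranslated exons 3 and coding exons 2. A further 7 regions were strict in a single library, 5 of them in WT replicate 1.

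A summit in every library, which the test required, was present at 21 of the 33 regions (63.6%, against 37.4% of all merged regions), 14 on the Trem cluster and 7 at Tyrobp and Hcst. The other 12, among them the 3 regions found in a single genotype, were not tested. The limma fit shares the spread between libraries over all regions tested. Its standard errors and p-values therefore do not measure the spread of a single region's own libraries. By limma with Benjamini-Hochberg adjustment over all 58109 regions, 4 of the 21 were higher in IRF8KO (19.0%), where 2.81% of all regions tested were. These were the Trem1 promoter, a region upstream of Trem1, the Trem3 promoter and a region upstream of Hcst. A single region, at Treml2, was lower (4.76%), where 6.80% of all regions were. After centring, 6 were higher (background 13.5%) and 2 were lower (12.2%), and the 5 regions of the first scale were called again in the same direction. Over all regions, 29.2% of 5587 calls were higher in IRF8KO on the PPM scale and 52.5% of 14897 calls after centring. The median log2 difference was -0.19 over the 21 regions, -0.34 on the Trem cluster and 0.06 at Tyrobp and Hcst. Both IRF8KO libraries lay above both WT libraries at 5 of the 21 (23.8%, background 11.9%) and below both at 7 (33.3%, background 37.1%). Without either WT library the count of higher regions fell from 4 to 1, the Trem1 promoter, and without IRF8KO replicate 2 the count of lower regions went from 1 to 3.

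**Figure D1:**
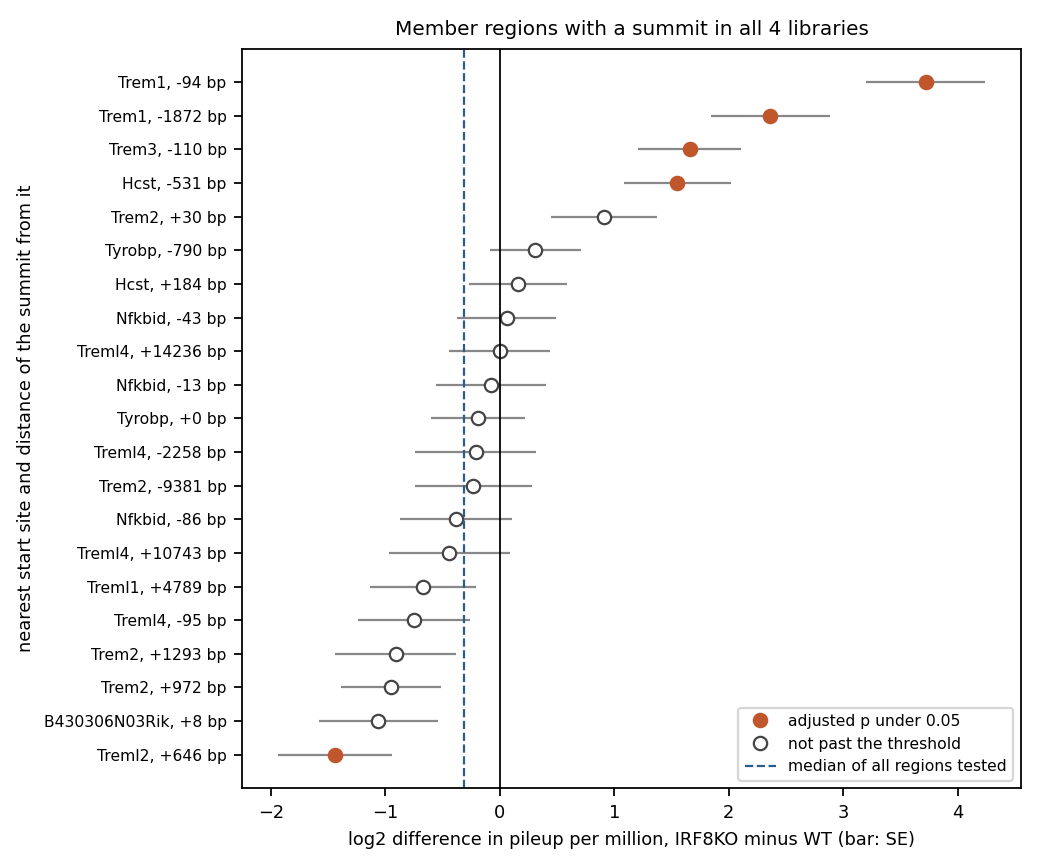
Log2 difference in PPM (IRF8KO minus WT, horizontal axis) at the 21 regions with a summit in all 4 libraries, named by the nearest start site and the distance of the summit from it; bars are standard errors from limma. Filled points passed an adjusted p of 0.05, 4 to the right and 1 to the left, and the dashed line at -0.31 is the median of all 58109 regions tested.

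The largest difference lay at Trem1. Its promoter was barely listed in WT and was among the taller peaks in IRF8KO. The region, chr17:48232554-48232861 (GRCm38), has its summit 94 bp before the start site, outside the transcript. Pileup was 0.192 and 0.164 PPM in WT replicates 1 and 2 (9 and 8 cut sites) and 2.04 and 2.67 in IRF8KO replicates 1 and 2 (161 and 177). Both IRF8KO libraries lay far above both WT libraries, and in WT replicate 2 the peak was not strict. The mean was 13.3 times as high in IRF8KO, a log2 difference of 3.72 ± 0.52 (SE, n = 2 each, limma adjusted p = 3.12e-10; 4.03 and 4.65e-17 after centring). In the ranking of strict peaks by pileup it stood in the top 7.54% and 7.83% of the IRF8KO lists and only in the top 91.0% of the list of WT replicate 1. This call held under all 10 alternative settings that gave it a value, with log2 differences from 2.38 to 4.03 and adjusted p-values up to 0.00766.

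On either side of this promoter 2 more regions had more signal in IRF8KO. A region 1872 bp upstream (chr17:48230605-48231028) held 0.362 and 0.184 PPM in WT and 1.17 and 1.51 in IRF8KO. All 4 libraries had a strict peak there, the groups did not overlap, and the log2 difference was 2.36 ± 0.52 (SE, n = 2 each, limma adjusted p = 0.000256; 2.68 and 2.14e-10 after centring). As fold enrichment over the local background the difference was 1.17 with an adjusted p of 0.110, so this call depended on the scale. Without WT replicate 1 or 2 the difference was 2.85 or 1.87 on the PPM scale, and the call was lost with a single WT library left. The other region lay in a Trem1 intron, 1967 bp past the start site (chr17:48234575-48234911), and was IRF8KO-specific: both IRF8KO lists held a strict peak there and neither WT list held a peak of any strength. It held 0.774 and 0.936 PPM in IRF8KO, with −log10 q of 26.4 and 27.6, in the top 23.3% and 26.0% of those lists. Of the 33 regions 2 were IRF8KO-specific (6.06%, background 3.86%) and 1 was WT-specific (3.03%, background 5.58%). In the window of Trem1 strict peaks covered 764 and 588 bp in WT and 1497 and 1460 bp in IRF8KO, 676 ± 124 against 1478 ± 26.2 (SD, n = 2 each, exact permutation p = 0.333, the smallest possible). That window also holds the promoter region of Trem3.

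Trem3 begins less than 1 kb past the end of Trem1 and encodes a further activating receptor that pairs with DAP12. Its promoter region, chr17:48247339-48247902 with the summit 110 bp before the start site, was already open in WT and was higher in IRF8KO. Pileup was 0.767 and 0.859 PPM in WT and 2.01 and 3.28 in IRF8KO. The groups did not overlap, and the IRF8KO mean was 3.25 times the WT mean, a log2 difference of 1.66 ± 0.45 (SE, n = 2 each, limma adjusted p = 0.00494; 1.97 and 1.81e-10 after centring). As fold enrichment over the local background the difference was 0.85 with an adjusted p of 0.0380. Without WT replicate 1 or 2 it was, on the PPM scale, 1.58 or 1.74 with adjusted p-values of 0.694 and 0.449.

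The sequences of both promoters and of the IRF8KO-specific Trem1 intron region are shown because the promoters passed the test and the intron region had no listed peak in WT. They run 5′ to 3′ on the plus strand, the strand of both genes, over the 100 bases on either side of the summit, leaving out untranslated exons. Capitals mark a PU.1 match on the minus strand (ACTTCCTC) and an AP-1 match (TGAGTCA).
Trem1 promoter, chr17:48232574-48232767: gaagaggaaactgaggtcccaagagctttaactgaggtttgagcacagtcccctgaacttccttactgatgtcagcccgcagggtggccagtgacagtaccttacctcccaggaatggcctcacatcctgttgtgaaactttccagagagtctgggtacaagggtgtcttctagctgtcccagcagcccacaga
Trem1 intron, chr17:48234638-48234838: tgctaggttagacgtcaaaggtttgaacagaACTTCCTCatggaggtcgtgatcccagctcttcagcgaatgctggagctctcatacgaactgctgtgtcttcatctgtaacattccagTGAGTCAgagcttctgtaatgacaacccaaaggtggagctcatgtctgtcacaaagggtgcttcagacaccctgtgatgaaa
Trem3 promoter, chr17:48247567-48247767: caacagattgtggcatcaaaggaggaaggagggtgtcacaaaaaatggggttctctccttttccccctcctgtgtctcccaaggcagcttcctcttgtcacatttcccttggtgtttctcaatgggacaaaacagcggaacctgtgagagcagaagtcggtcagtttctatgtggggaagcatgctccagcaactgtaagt
The promoters of Trem1 and Trem3 held no match to any of the 9 motifs searched. The Trem1 intron held both matches in capitals, the PU.1 match 69 bp before and the AP-1 match 19 bp after the summit.

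**Figure D2:**
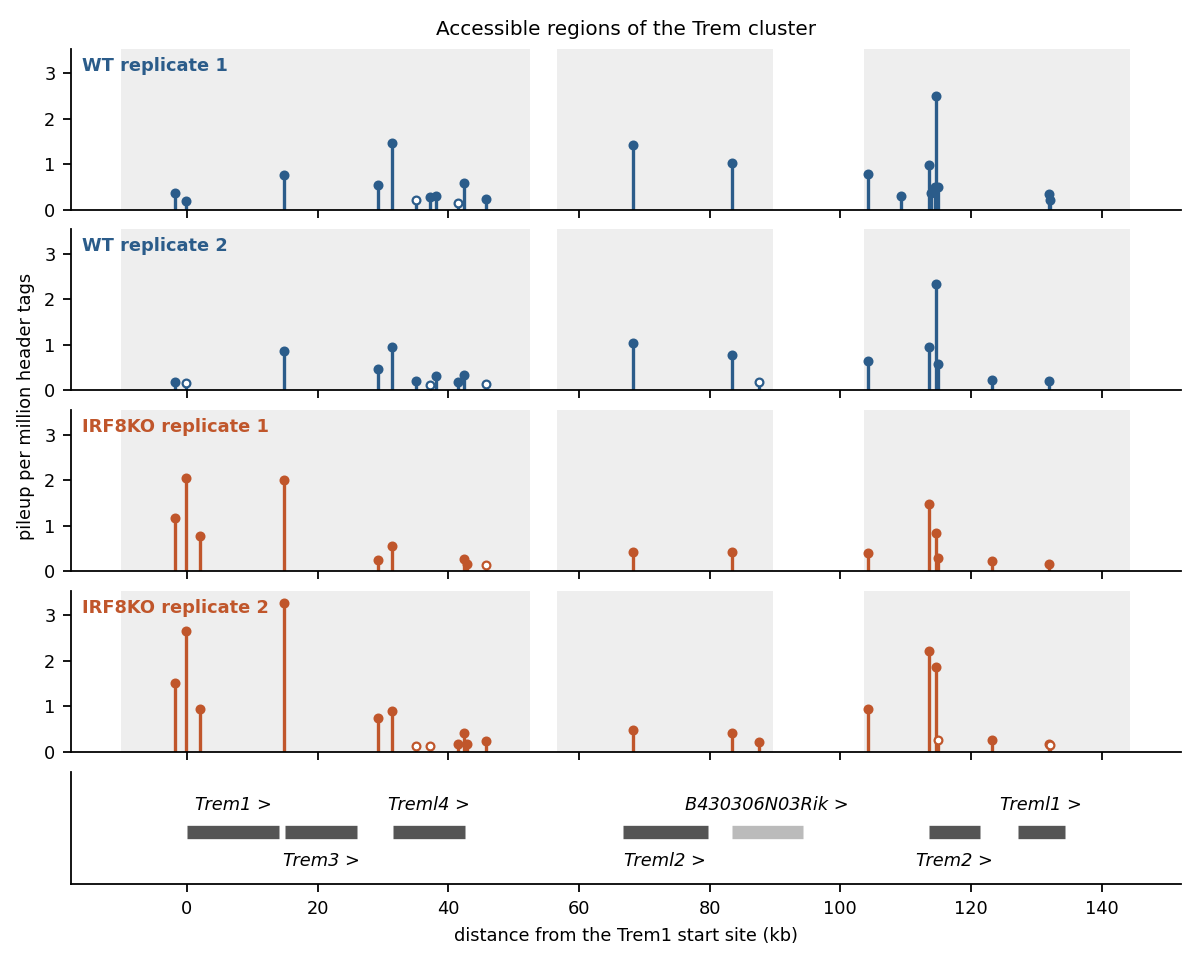
Pileup in PPM (vertical axis) at the summit of each merged region of the Trem cluster against the distance from the Trem1 start site in kb, 1 panel per library. Filled heads are strict peaks, open heads weaker deposited peaks, grey shading the windows, dark bars the genes described and the light bar a neighbouring gene; the tall stems at Trem1 and Trem3 in both IRF8KO libraries are absent or short in WT.

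Treml4, a receptor described on myeloid cells of the spleen and blood, showed lower values in IRF8KO that did not pass the test. Its promoter region (chr17:48263639-48264373, summit 95 bp before the start site) held 1.47 and 0.961 PPM in WT and 0.558 and 0.891 in IRF8KO. The groups did not overlap, but the distance between them was small against the spread (log2 difference -0.75 ± 0.49, SE, n = 2 each, limma adjusted p = 0.410; -0.44 and 0.216 after centring). Without IRF8KO replicate 2 it was -1.09 with an adjusted p of 0.0417, without IRF8KO replicate 1 it was -0.42 (0.691) and without WT replicate 1 it was -0.45 (1.0). The single WT-specific region of the 33 lay in a Treml4 intron, 6498 bp past the start site (chr17:48270789-48271026), with 0.298 and 0.307 PPM in WT and −log10 q of 5.96 and 7.18. The other IRF8KO-specific region lay just past the 3′ end of the gene (chr17:48275602-48275797) with 0.165 and 0.166 PPM, 13 and 11 cut sites, which is close to the lowest pileup listed in WT. It was no longer IRF8KO-specific at a −log10 q of 5 or at an equal pileup of 0.192 PPM in every library. The region 2258 bp before Treml4 held 0.532 and 0.470 PPM in WT and 0.254 and 0.740 in IRF8KO, which overlapped.

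Treml2, known from macrophages and lymphocytes, was the only gene of the cluster with a region lower in IRF8KO at the threshold. The region spans the start of a coding transcript and has its summit in an intron, 646 bp past a start site (chr17:48300237-48301193). Pileup was 1.43 and 1.04 PPM in WT and 0.419 and 0.483 in IRF8KO. Both IRF8KO libraries lay under 0.5 and both WT libraries over 1 PPM, and the WT mean was 2.74 times as high (log2 difference -1.44 ± 0.50, SE, n = 2 each, limma adjusted p = 0.0465; -1.13 and 0.00101 after centring). As fold enrichment over the local background it was -0.54 (adjusted p = 0.340). Without WT replicate 1 or 2 it was -1.21 or -1.67 with adjusted p-values of 1.0 and 0.645, and among regions strict in all 4 libraries the adjusted p was 0.0592. The call was lost under 5 of 11 alternative settings. A region at the start of the neighbouring gene B430306N03Rik, in the same window, held 1.02 and 0.777 PPM in WT and 0.432 and 0.423 in IRF8KO (log2 difference -1.06 ± 0.52, adjusted p = 0.216).

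The Treml2 and Treml4 regions with less signal in IRF8KO are shown because they are the 2 of the 33 whose summit window held an interferon-stimulated response element, which has 2 GAAA cores with 2 bases between them. Both genes lie on the plus strand, which is printed 5′ to 3′, and capitals mark the match, which in Treml2 reads on the minus strand.
Treml2 intron, chr17:48300932-48301132: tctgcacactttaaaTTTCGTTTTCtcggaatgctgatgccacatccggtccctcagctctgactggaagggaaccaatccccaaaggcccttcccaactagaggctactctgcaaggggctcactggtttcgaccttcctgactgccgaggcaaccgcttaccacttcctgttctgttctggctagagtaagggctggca
Treml4 intron, chr17:48270771-48270971: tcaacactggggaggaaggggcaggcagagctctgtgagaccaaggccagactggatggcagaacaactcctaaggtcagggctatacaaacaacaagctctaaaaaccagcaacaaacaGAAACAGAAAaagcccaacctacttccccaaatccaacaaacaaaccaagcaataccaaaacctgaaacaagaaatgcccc
The match lay 85 bp before the summit in Treml2 and 20 bp after it in Treml4.

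Trem2 did not pass the test on the PPM scale, and its 2 tallest regions differed with opposite signs. The promoter region, chr17:48346226-48346579 with the summit in the 5′ untranslated exon 30 bp past the start site, held 0.980 and 0.961 PPM in WT and 1.48 and 2.23 in IRF8KO. Both IRF8KO libraries were higher (log2 difference 0.91 ± 0.46, SE, n = 2 each, limma adjusted p = 0.236), and the difference passed after centring (1.22, adjusted p = 1.59e-05), as fold enrichment over the local background (1.13, adjusted p = 0.0375) and without IRF8KO replicate 1 (1.2, adjusted p = 0.0306). Without IRF8KO replicate 2 it was 0.61 (adjusted p = 0.256). A region in the first intron of the protein-coding transcripts, 972 bp past the nearest start site (chr17:48347331-48347630), was the tallest of the cluster in both WT libraries. It held 2.49 and 2.33 PPM in WT and 0.838 and 1.86 in IRF8KO (log2 difference -0.95 ± 0.44, SE, n = 2 each, limma adjusted p = 0.178; -0.64 and 0.0178 after centring). The value in IRF8KO replicate 1, the library of lowest median signal, was the lowest, and the difference was -1.52 without IRF8KO replicate 2 (adjusted p = 0.00099) and -0.38 without IRF8KO replicate 1 (adjusted p = 0.693).

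A ratio of 2 regions within a library does not depend on its depth, and such ratios were taken after the values were seen. Intron pileup divided by promoter pileup at Trem2 was 2.54 and 2.43 in WT and 0.564 and 0.831 in IRF8KO, 2.48 ± 0.0834 against 0.698 ± 0.189 (SD, n = 2 each, exact permutation p = 0.333, the smallest possible). The intron was the taller of the pair in both WT libraries and the promoter in both IRF8KO libraries. The intronic sequence around that summit is shown because it was the tallest peak of the cluster in WT, and it held none of the motifs searched.
Trem2 intron, chr17:48347360-48347560: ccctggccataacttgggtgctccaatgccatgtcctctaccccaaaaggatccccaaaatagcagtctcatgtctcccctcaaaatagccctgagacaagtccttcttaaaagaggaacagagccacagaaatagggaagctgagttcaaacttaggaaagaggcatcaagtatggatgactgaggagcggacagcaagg
Of the other regions in the Trem2 window, that 9381 bp upstream held 0.788 and 0.654 PPM in WT and 0.393 and 0.951 in IRF8KO, which overlapped. Summits 208 and 731 bp past the nearest start site and 4352 bp before the gene were listed in WT replicate 1 alone, at 0.362, 0.490 and 0.298 PPM.

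Treml1, a receptor of platelets and megakaryocytes, was the only gene of the 8 with no strict region within 1 kb of a coding start site. An intronic region 4789 bp past its start (chr17:48364551-48364797) held 0.341 and 0.205 PPM in WT and 0.165 and 0.166 in IRF8KO. The groups did not overlap, and the difference did not pass the test (log2 difference -0.67 ± 0.46, SE, n = 2 each, limma adjusted p = 0.449). A region 3929 bp upstream, between Trem2 and Treml1, was listed at 0.225 PPM in WT replicate 2, at 0.216 and 0.257 in IRF8KO and not in WT replicate 1.

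**Figure D3:**
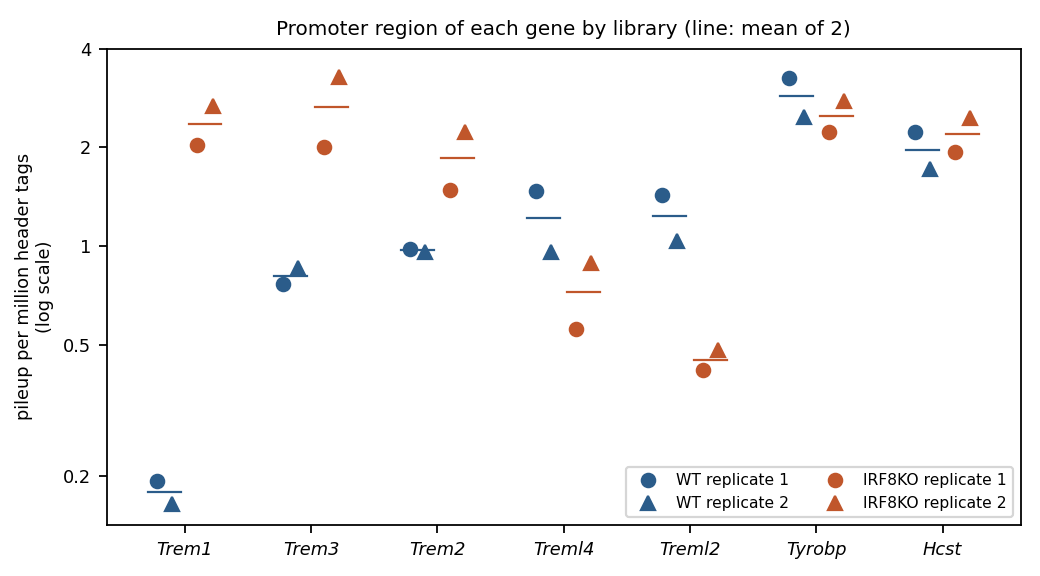
Pileup in PPM on a log scale (vertical axis) at the promoter region of the 7 genes that had one, in each library; circles are replicate 1, triangles replicate 2 and lines the mean of 2 libraries. The WT and IRF8KO points are far apart at Trem1, apart at Trem3, Trem2, Treml4 and Treml2, and overlap at Tyrobp and Hcst.

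Tyrobp encodes DAP12, the shared adaptor of the activating TREM receptors, and its promoter was open in every library with no difference past the threshold. The region over its start site (chr7:30413624-30414117) held 3.26 and 2.47 PPM in WT and 2.23 and 2.76 in IRF8KO, in the top 6.53% to 7.43% of each strict list. The groups overlapped, with a log2 difference of -0.19 ± 0.41 (SE, n = 2 each, limma adjusted p = 0.843), which changed sign to 0.12 (adjusted p = 0.712) after centring. A region 790 bp upstream (chr7:30412526-30413363) was the tallest of all 33, at 3.54 and 2.52 PPM in WT and 3.20 and 4.29 in IRF8KO. Its groups overlapped too (0.31 ± 0.40, adjusted p = 0.729), although after centring the difference was 0.62 with an adjusted p of 0.00472. The standard errors allow changes of either sign, so the test does not show that Tyrobp was equal in the genotypes.

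Hcst, which runs towards Tyrobp on the minus strand and encodes DAP10, likewise had an open promoter in every library. Its region (chr7:30419506-30420003, summit in an intron 184 bp past the nearest start site) held 2.22 and 1.72 PPM in WT and 1.93 and 2.45 in IRF8KO, and the groups overlapped (log2 difference 0.16 ± 0.43, SE, n = 2 each, limma adjusted p = 0.883; 0.47 and 0.0755 after centring). As fold enrichment over the local background the sign turned, to -0.11. A second region 531 bp upstream, between Hcst and Nfkbid (chr7:30420227-30420583), behaved otherwise. It held 0.596 and 0.736 PPM in WT and 1.81 and 2.07 in IRF8KO. The groups did not overlap, and the IRF8KO mean was 2.91 times the WT mean (log2 difference 1.55 ± 0.47, SE, n = 2 each, limma adjusted p = 0.0147; 1.86 and 1.37e-08 after centring). As fold enrichment over the local background the difference was 1.25 with an adjusted p of 0.0576, and without WT replicate 1 or 2 it was 1.40 or 1.70 with adjusted p-values of 0.884 and 0.515. The 3 regions at Nfkbid, which encodes a nuclear inhibitor of the NF-kB family, had log2 differences of -0.38, 0.06 and -0.08, and none passed the test (lowest adjusted p = 0.731). The first of them, 86 bp before Nfkbid, held 1.04 and 0.900 PPM in WT and 0.800 and 0.695 in IRF8KO, which did not overlap.

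The sequence around the summit upstream of Hcst is shown because this was the only region of the adaptor locus past the threshold. It is the plus strand, opposite to Hcst, and it held none of the motifs searched.
Hcst upstream, chr7:30420285-30420485: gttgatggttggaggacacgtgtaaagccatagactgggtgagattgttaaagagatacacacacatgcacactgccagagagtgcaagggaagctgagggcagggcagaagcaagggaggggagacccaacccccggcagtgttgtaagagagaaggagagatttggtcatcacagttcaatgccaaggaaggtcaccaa

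**Figure D4:**
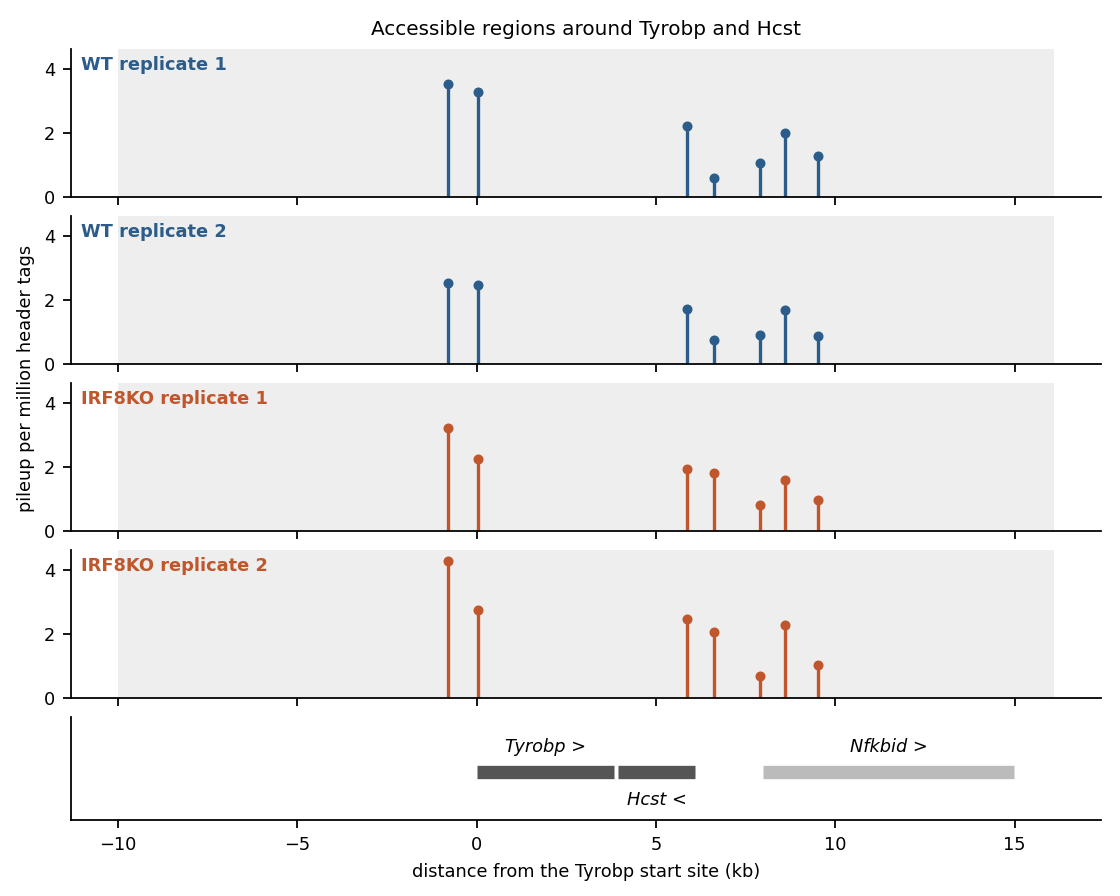
Pileup in PPM (vertical axis) at the summit of each merged region around Tyrobp and Hcst against the distance from the Tyrobp start site in kb, 1 panel per library; dark bars are Tyrobp and Hcst, the light bar Nfkbid, arrows give the strand. Of the 7 regions the 1 lying 531 bp upstream of Hcst, at 0.596 and 0.736 PPM in WT and 1.81 and 2.07 in IRF8KO, separated the genotypes upwards.

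Set against the region over the Tyrobp start site in the same library, the receptors spread widely. The Trem1 promoter reached 0.0588 and 0.0661 of the Tyrobp pileup in WT and 0.915 and 0.967 in IRF8KO. For Trem3 the ratios were 0.235 and 0.347 in WT and 0.898 and 1.19 in IRF8KO, and for Trem2 they were 0.301 and 0.388 against 0.665 and 0.809. Those 3 receptors stood nearer to the adaptor in both IRF8KO libraries. Treml4 stood further from it, with 0.451 and 0.388 in WT and 0.250 and 0.322 in IRF8KO, and so did Treml2, with 0.438 and 0.421 against 0.188 and 0.175. For Hcst the ratios were 0.680 and 0.694 against 0.864 and 0.885. The WT and IRF8KO ratios overlapped at none of these 6 genes, and each exact permutation p was 0.333, the smallest possible. Such ratios did not overlap at 44.4% of 12267 promoters, higher in IRF8KO at 11.5% and lower at 32.9%. Divided by the taller Tyrobp region 790 bp upstream, a choice added after the data were seen, the ratios again overlapped at none of the 6. The 5 receptors kept their direction, while that of Hcst turned, to 0.627 and 0.683 in WT against 0.603 and 0.570 in IRF8KO.

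The promoter region of each gene is the one over a start site. Taller regions within 1 kb of a start site were the Tyrobp region 790 bp upstream in every library and the Trem2 intron region in WT. By level in WT, the mean promoter pileup ran in the order Tyrobp, Hcst, Treml2, Treml4, Trem2, Trem3 and Trem1, and Treml1 had no region. Tyrobp at 2.87 ± 0.555 and Hcst at 1.97 ± 0.352 stood above the rest, while Treml2 at 1.24 ± 0.272, Treml4 at 1.22 ± 0.360 and Trem2 at 0.971 ± 0.0131 lay within their spread (PPM, SD, n = 2 each). Trem3 followed at 0.813 ± 0.0652 and Trem1 at 0.178 ± 0.0199. In IRF8KO the order was Trem3 at 2.64 ± 0.899, Tyrobp at 2.50 ± 0.375, Trem1 at 2.36 ± 0.445, Hcst at 2.19 ± 0.366 and Trem2 at 1.86 ± 0.530. Trem3 led in IRF8KO replicate 2 alone and stood behind Tyrobp and Trem1 in replicate 1, and Trem2 was the lowest of these 5 in both libraries. Treml4 at 0.725 ± 0.235 and Treml2 at 0.451 ± 0.0455 were lower. A strict promoter region was present in all 4 libraries at 6 of the 8 genes, the exceptions being Trem1 and Treml1.

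Among 12267 genes with a promoter region in all libraries, the 3 nearest to Trem2 in log2 PPM over the 4 libraries were Stk38, Maml2 and Ccrl2, at root-mean-square distances of 0.124, 0.137 and 0.160. The 3 nearest to Tyrobp were Sdcbp, Map2k2 and Arpp19, at 0.045, 0.053 and 0.061.

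Motifs were searched on both strands in the 201 bases around the strongest summit of each region, and a stretch could count for several motifs. The ETS-IRF composite element, at which IRF8 binds with PU.1, was found in 0 of the 33 regions and in 4.30% of all merged regions. The interferon-stimulated response element (ISRE) was found in 2 (6.06%, all regions 3.13%), the PU.1 site GAGGAAGT in 5 (15.2%, all regions 7.74%) and AP-1, TGACTCA or TGAGTCA, in 3 (9.09%, all regions 5.91%). The PU.1 matches included the Tyrobp start site region and the Hcst promoter, and the AP-1 matches the Hcst promoter and, with 2 copies, the region between Trem2 and Treml1. CEBP, TTGCNNAA, was found in 3 (9.09%, all regions 9.54%), with 2 copies at the Trem2 promoter, MAF, TGCTGAC, in 2 (all regions 5.02%), RUNX, TGTGGTT, in 1 (5.57%) and the MEF2 site in 1 (3.36%). The E-box of the MiT family, TCACGTGA, was found in none (0.348%). A match is a string of letters and not a measured site, and no match says only that these letters are not in the window.

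The wider pathway was read from 35 genes listed by role. For each gene the region nearest to a start site was taken. Of 30 such promoter regions tested, 0 were higher and 0 lower in IRF8KO by limma at an adjusted p under 0.05, and 0 had an unadjusted p under 0.05. Their median log2 difference was -0.32, beside -0.31 over all regions, and after centring 1 was higher, that of Pilrb1, an activating receptor of the paired immunoglobulin-like type (0.92, adjusted p = 0.033; 0.61 ± 0.53 and 0.578 on the PPM scale). All 16 promoters of kinases and adaptors were strict in every library. Syk, the kinase that binds phosphorylated DAP12, held 1.60 and 1.25 PPM in WT and 0.952 and 1.01 in IRF8KO. Bcl10, of the CARD9 signalling complex, was the tallest of the 16 in each library, at 12.1 and 9.71 PPM in WT and 7.30 and 12.4 in IRF8KO. The 4 promoters of inhibitors and the 4 of targets were strict in every library too. Klrk1, which encodes the NKG2D receptor that pairs with DAP10, was the only gene of the list with no promoter peak.

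Promoters included, 573 regions lay in these genes or within 10 kb of them. Of the 295 tested, 5 were higher (1.69%) and 24 lower (8.14%) in IRF8KO, beside 2.81% and 6.80% of all regions, and 39 (13.2%) and 48 (16.3%) after centring, beside 13.5% and 12.2%. Of the 573, 26 were WT-specific (4.54%) and 24 IRF8KO-specific (4.19%), beside 5.58% and 3.86% of all regions, at 23 of the 35 genes. The strongest IRF8KO-specific region lay upstream of Sirpb1a, an activating receptor of the signal regulatory protein family that pairs with DAP12, at 1.09 and 1.74 PPM. The strongest WT-specific regions lay near Lcp2, the adaptor SLP-76, at 2.13 and 1.23 PPM, in an untranslated exon of Ptpn6, the phosphatase SHP-1, at 1.98 and 1.43, and in an intron of Ptk2b, the kinase PYK2, at 1.38 and 0.900. Introns of Cbl, a ubiquitin ligase, and Plcg2, a phospholipase downstream of TREM2, each held an IRF8KO-specific region, at 0.292 and 0.589 and at 0.647 and 0.544 PPM, and both genes had 3 such regions. Mitf, a transcription factor of macrophages, had 2 regions of each kind.

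Among the ligands and sheddases, Apoe encodes a protein that binds TREM2, and Adam10 and Adam17 encode proteases that release TREM2 from the surface. Apoe had 3 promoter regions. That over its first start site was not listed in WT replicate 1, held 0.225 PPM in WT replicate 2 and 1.10 and 1.81 in IRF8KO, and could not be tested for want of a summit in the first. A second, at chr7:19699594-19699920, was strict in every library, with 0.405 and 0.429 PPM in WT and 0.800 and 1.81 in IRF8KO. It was higher in IRF8KO (log2 difference 1.53 ± 0.51, SE, n = 2 each, limma adjusted p = 0.0318, and 1.84 with 4.18e-07 after centring). The third was listed under the strict threshold in both WT libraries, at 0.256 and 0.184, not in IRF8KO replicate 1, and at 0.710 in IRF8KO replicate 2. Of the 10 regions in Apoe or within 10 kb of it 2 were IRF8KO-specific (all regions 3.86%). Adam10 held 3.56 and 3.33 PPM in WT and 2.39 and 3.14 in IRF8KO (log2 difference -0.33, adjusted p = 0.714). Adam17 held 5.52 and 5.28 in WT and 3.55 and 5.32 in IRF8KO (log2 difference -0.31, adjusted p = 0.718).

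Marker genes of other cells were read at their promoters because Trem1 and Trem3 are known from neutrophils and monocytes and Treml1 from platelets. Fewer cells of a type and less open chromatin per cell cannot be told apart in these bulk libraries. Microglial promoters were strict at 10 of 10 genes in both WT and 9 of 10 in both IRF8KO libraries, with a summed pileup of 28.2 and 20.8 PPM in WT and 11.5 and 18.7 in IRF8KO. Of the 9 microglial promoters tested 1 was lower and 0 were higher. Their median log2 difference was -0.42, beside -0.31 over all regions. Of the 90 regions tested at these genes 3 were higher (3.33%, background 2.81%) and 6 were lower (6.67%, background 6.80%). After centring 9 were higher and 14 were lower, beside 13.5% and 12.2% of all regions. The promoter called lower in IRF8KO was that of P2ry12 (log2 difference -1.54 ± 0.44, limma adjusted p = 0.00794). The Sall1 promoter, which was not tested, was at 2.11 and 2.05 PPM in WT, not listed in IRF8KO replicate 1 and at 0.151 in IRF8KO replicate 2.

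Neutrophil promoters were strict at 3 and 2 of 10 genes in WT and at 3 and 4 in IRF8KO, with a summed pileup of 1.92 and 1.72 against 1.47 and 1.82 PPM, and S100a9, Ly6g, Elane, Mpo, Ngp and Ltf had no strict promoter peak in any library. S100a8, which encodes a calprotectin subunit, held 0.234 and 0.123 PPM in WT and 0.178 and 0.257 in IRF8KO, and Camp, the cathelicidin gene, was listed in IRF8KO alone, at 0.102 and 0.166. Cxcr2 and Csf3r, which encode receptors for chemokines and for granulocyte colony-stimulating factor, had strict peaks in every library. Of the 18 regions tested at neutrophil genes 1 was higher (5.56%, background 2.81%) and 0 were lower. Monocyte promoters were strict at 1 and 2 of 5 genes in WT and at 1 and 2 in IRF8KO, summing to 2.17 and 1.66 against 0.596 and 1.12, with no strict promoter peak at Ly6c2, Ccr2 and Plac8. Vcan held 2.17 and 1.66 PPM in WT and 0.596 and 0.951 in IRF8KO and was lower (log2 difference -1.33 ± 0.46, limma adjusted p = 0.0445). Of the 12 regions tested at monocyte genes 4 were lower on both scales (33.3%, background 6.80% and 12.2%), 2 of them at Ccr2, and 0 were higher. Of the border macrophage promoters 1 of 5 was strict in each WT and 2 in each IRF8KO library, and the sum was 0.341 and 0.205 against 1.03 and 1.36 PPM. In that list Mrc1 held 0.213 and 0.205 against 0.470 and 0.664 (log2 difference 1.42 ± 0.52, adjusted p = 0.0606; 1.73 and 5.9e-05 after centring). Ms4a7 was listed under the strict threshold in WT replicate 1, at 0.128, not in WT replicate 2, and was strict at 0.558 and 0.695 in IRF8KO, while Cd163, Lyve1 and Cd209f had no strict promoter peak. Of the 31 regions in or near these 5 genes 7 were IRF8KO-specific (22.6%, background 3.86%), and of the 15 tested 1 was higher (6.67%, background 2.81%) and 2 were lower (13.3%, background 6.80%), which became 5 higher (33.3%, background 13.5%) and 2 lower (13.3%, background 12.2%) after centring. Platelet and megakaryocyte promoters were strict at 2 and 2 of 6 genes in WT and at 3 and 2 in IRF8KO, summing to 0.639 and 0.327 against 1.57 and 2.09, of which Pf4, also expressed by border macrophages, made 0.447 and 0.327 against 1.29 and 1.89 (log2 difference 2.03 ± 0.50, limma adjusted p = 0.00146), while Ppbp, Itga2b and Gp1bb had no strict peak. Counted gene by gene, 2 of 13 regions tested were higher (15.4%, background 2.81%) and 0 were lower. Those 2 are the same region, the Pf4 promoter, which also lies within 10 kb of Ppbp and was counted for both genes. No region tested at the other genes of this list was called. The part of such cells in the Trem1 and Trem3 results was not tested.

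The remaining lists, for natural killer cells, B or T cells, astrocytes, oligodendrocytes, neurons and endothelium, summed to between 0.0 and 1.68 PPM in every library. Only 4 of their 20 promoters could be tested, none of them of the natural killer, B or T cell or neuron lists, and 0 of the 4 passed the test with limma or had an unadjusted p under 0.05. Klrb1c, a natural killer cell receptor gene, had a strict promoter peak in IRF8KO alone, at 0.470 and 0.529 PPM, and 3 of the 8 regions at natural killer cell genes were IRF8KO-specific (37.5%, background 3.86%). In the same list the Prf1 promoter was strict in WT replicate 1 alone, at 0.213 PPM, and Ncr1 had no strict promoter peak. Oligodendrocyte promoters summed to 1.68 and 1.12 PPM in WT and 0.279 and 0.770 in IRF8KO, and 5 of the 18 regions tested at those genes were lower and 1 was higher (27.8% and 5.56%, background 6.80% and 2.81%). For astrocytes the sums were 0.916 and 0.491 against 0.228 and 0.242, and 5 of 29 regions were WT-specific (17.2%, background 5.58%). The part of such cells in the results was not tested.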

How the data were processed

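Peak lists of 4 ATAC-seq libraries, 2 WT and 2 IRF8KO, were used as deposited. Per the submitters' processing notes, bcl2fastq, Bowtie2, MACS2 2.1.1.20160309 and deepTools were used with mm10. Per the file headers, peaks were called in each library separately, with no control library, a p cutoff of 0.01, cut sites shifted by -37 bp and extended to 73 bp, all remaining duplicates kept and a local background over 10 kb. Per the labels, libraries were amplified with 12 cycles of PCR. The deposited pileup is a signal, the number of extended cut sites over a summit, not scaled to the size of the library. Fold enrichment, as deposited, is the ratio of pileup to local background, and the deposited −log10 p and −log10 q are the caller's own; the headers announce no q, but the column held values, which were used. Pileup was divided by the header tags and multiplied by 1000000 (PPM), which assumes that it scales with depth.

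Intervals repeated for several summits were reduced to distinct peaks with their best summit. Strict peaks on the autosomes and X were merged, with 1 bp counted as overlap. Coordinates are GRCm38, counted from 1, with GENCODE M21 genes, and 0 peaks lay beyond the chromosome ends. Promoter regions lay within 1 kb of a start site of a protein-coding transcript; where several did, the one nearest to a start site was used, and of equally near ones the tallest. Sequences come from GRCm38. Differences in log2 PPM were tested with limma 3.58.1 in R 4.3.3 (trend, Benjamini-Hochberg adjustment over 58109 regions, threshold 0.05), in a procedure tested on simulated data. A region entered only with a summit in all 4 libraries, so regions without a summit in any single library were left out. Regions near the floor that had a summit in every library stayed in, among them the Trem1 promoter, whose WT values are close to the lowest pileup listed.

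All 8 genes are named, with every region that was genotype-specific, past the threshold, at a promoter or tallest in its window, and further regions as values; Nfkbid and B430306N03Rik regions were named because they share the windows. Of the pathway genes, those with a genotype-specific region of high −log10 q are named, and Adam10, Adam17, Syk, Bcl10, Apoe, Pilrb1 and Klrk1, and the markers named, were chosen after their values were seen. The 8 genes, the lists and the tests were chosen with earlier results of these data known. Alternatives changed the strict threshold, the overlap, the flank, the scaling, the filter, the trend, the replicate block and the libraries used.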

Additional observations from a re-analysis of the deposited data

How the results depend on the processing

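With libraries left out, the regions higher in IRF8KO at these genes went from 4 to between 1 and 5, the lower ones from 1 to between 0 and 3, and over all regions tested from 1633 to between 95 and 3723 and from 3954 to between 132 and 12406; the WT-specific count went from 1 to as many as 4 without WT replicate 2, and the strict-peak difference of -1.5 ranged from -3.5 to 0.5, the latter without WT replicate 1. Where 1 library stood alone it was assumed to vary like the other genotype. The replicate numbers share only a number (correlation of their deviations 0.006 over 58109 regions); with the replicate block 1 region was higher and 0 were lower at these genes, and 328 and 871 over all regions, a fit with few residual degrees of freedom. Centring on the median gave 2 lower regions at these genes and 7819 and 7078 over all, and quantile normalization 2, and 7060 and 6815. Fold enrichment gave 0 lower regions at these genes and 2046 over all, strict peaks in all libraries 0 at these genes, and the regions above the median pileup 877 and 1838 over all. The IRF8KO-specific count went from 2 to 1 at −log10 q of 5, at fold enrichment of 5, at equal pileup and at the larger overlap, and the WT-specific count to 0 at fold enrichment of 5. The strict-peak difference turned to 1.0 at −log10 q of 5 and to 1.5 with all deposited peaks. At the Tyrobp start site the sign turned to 0.12 by centring, 0.06 by quantile normalization and 0.01 without WT replicate 1, from -0.39 to 0.01 over the libraries left out. At the Hcst promoter it turned to -0.11 by fold enrichment, -0.03 without WT replicate 2 and -0.02 without IRF8KO replicate 2, from -0.03 to 0.34 over the libraries left out. The causes were not tested. Depth limits what a peak listed in no library of a genotype can show.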
